A study of Mus musculus with 12 samples.

Results

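Lymphatic vessels drain fluid, fat and immune cells from tissue, and 6 genes that mark or build them were followed across 4 fat depots of the mouse. The genes were chosen by name as Lyve1, Prox1, Flt4, Pdpn, Vegfc and Vegfd. Of 7 names in the choice, Vegfd and Figf are the same gene, which the count table lists under its older symbol Figf, and the 6 genes were found among the 23420 of the table. The rule sets no threshold on a measured value. RNA sequencing covered 12 libraries, 3 from each depot. Brown fat was taken between the shoulder blades (interscapular, iBAT) and above the collarbone (supraclavicular, scBAT). White fat was taken from the groin (inguinal, iWAT) and from beside the testis (epididymal, eWAT). All came from untreated male C57BL/6 mice aged 8 weeks and kept at ambient temperature, with no transgene or diet named. The labels do not say that the 3 libraries of a depot are separate animals, so p-values measure the spread between these samples, which may be technical.

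Lymphatic endothelial cells arise from vein endothelium when the transcription factor Prox1 is switched on, and they keep their identity only while it stays on. The growth factors VEGF-C and VEGF-D (genes Vegfc and Vegfd) are secreted as precursors, cut by proteases with the help of the scaffold protein CCBE1, and bind the receptor VEGFR3 (gene Flt4), which makes lymphatic vessels sprout and grow. Lyve1 encodes a hyaluronan receptor of lymphatic capillaries, and Pdpn encodes podoplanin, a surface glycoprotein that keeps lymph and blood vessels apart. None of the surface genes belongs to lymphatic endothelium alone. Tissue-resident macrophages also make Lyve1, mesothelium and fibroblasts make Pdpn, and some blood capillaries make Flt4.

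Total counts ranged from 17159401 to 29262554 per library. Levels are given in CPM, the reads of a gene per library brought to equal totals, with TMM scaling for differences in composition. Ucp1, the uncoupling protein that marks brown fat, lay at 1560 to 2400 CPM in the 6 brown libraries and at 15.7 to 87.7 in the 6 white ones, and Adipoq, an adipocyte hormone, lay between 738 and 1930 in all 12. The iWAT libraries stood apart from each other, with a biological coefficient of variation of 42.8% against 12.1% to 17.6% in the other depots. The summed level of 10 B cell genes was 1769, 101 and 2431 CPM in iWAT libraries 1, 2 and 3 and at most 47.5 in any other library. The sum of 10 T cell genes was 1155, 74.1 and 1822 CPM in the same libraries and at most 20.1 elsewhere. Whether the inguinal lymph node was left in the pad is not stated in the labels. Many results that rest on iWAT are therefore also given without libraries 1 and 3. This leaves a lone iWAT library that is assumed to vary like the other depots. Some pairs of depots and most single genes of the marker lists are given with all libraries only. In bulk tissue, fewer cells of a type and less RNA per cell cannot be told apart.

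The 6 genes lie on 6 chromosomes of the mouse genome (build GRCm38, GENCODE annotation). Lyve1 spans positions 110850607 to 110863239 of chromosome 7, on the minus strand. Prox1 spans 190118035 to 190170714 of chromosome 1, minus strand, and Pdpn spans 143267431 to 143299564 of chromosome 4, minus strand. Flt4 spans 49609263 to 49652739 of chromosome 11, Vegfc 54077606 to 54187096 of chromosome 8 and Vegfd 164373378 to 164402650 of chromosome X, all on the plus strand. All are protein coding. Prox1 shares 133 exon bases with the antisense gene Prox1os, and since the strand setting of the counting is not given, reads in that stretch cannot be assigned to either gene.

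The promoters of Prox1, Pdpn and Vegfc are shown because these genes followed different patterns over the depots: Prox1 was highest in iWAT, Pdpn was far higher in eWAT than in iWAT and lowest in brown fat, and Vegfc was nearly level outside eWAT. Each sequence is the 250 bases before a RefSeq transcript start (GRCm38.p6), read 5′ to 3′ on the strand of the gene. Capitals mark matches to the TATA box letters TATAAA, the SOX core ACAAT, the GATA motif AGATAA and the nuclear receptor motif AGGTCA, searched on both strands, so that a match on the other strand appears as its reverse complement.
Prox1, chr1:190170828-190171077, minus strand: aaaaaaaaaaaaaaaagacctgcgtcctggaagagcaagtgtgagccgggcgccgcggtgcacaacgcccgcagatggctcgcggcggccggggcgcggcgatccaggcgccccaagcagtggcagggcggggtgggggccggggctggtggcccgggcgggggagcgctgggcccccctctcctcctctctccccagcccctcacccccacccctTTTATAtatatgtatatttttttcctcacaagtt
Pdpn, chr4:143299565-143299814, minus strand: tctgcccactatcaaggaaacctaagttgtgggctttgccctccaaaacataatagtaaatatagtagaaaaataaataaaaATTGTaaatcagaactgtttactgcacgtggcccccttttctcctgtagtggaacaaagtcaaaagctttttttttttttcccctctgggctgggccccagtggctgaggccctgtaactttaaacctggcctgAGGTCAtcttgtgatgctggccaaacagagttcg
Vegfc, chr8:54077282-54077531, plus strand: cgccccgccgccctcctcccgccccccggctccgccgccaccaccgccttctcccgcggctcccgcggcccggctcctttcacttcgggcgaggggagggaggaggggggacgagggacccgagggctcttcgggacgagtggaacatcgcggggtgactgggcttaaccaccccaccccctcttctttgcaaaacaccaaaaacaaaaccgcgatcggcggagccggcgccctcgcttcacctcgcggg
The Vegfc window held 71.6% G and C with 30 CpG pairs, and the Prox1 window 64.8% with 20. The Pdpn window held 43.2% with 2 CpG pairs, against medians of 52.4% and 6 over 32841 RefSeq promoter windows of the same length. Prox1 had TATAAA on the opposite strand with its match 34 bases before the start, and 12.4% of all windows hold these letters. Pdpn had ACAAT on the opposite strand at 168 bases and AGGTCA at 34 bases before the start, which 27.7% and 14% of windows hold. Vegfc had no match to any of the 4 motifs, and AGATAA, which 9.99% of windows hold, matched none of the 3 windows. These are matches of letters and not binding sites.

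All 6 genes were lower in brown than in white fat, by very different amounts. Between the mean of both brown depots and the mean of both white depots, Prox1, Pdpn, Lyve1 and Vegfd fell by 2 to 4 units on the log2 scale, Vegfc by less than 1 unit, and Flt4, the receptor, by 0.36. Of the 6, 6 passed an adjusted p of 0.05 in the edgeR quasi-likelihood test as lower in brown fat, where 38.1% of the 14898 genes tested did so, 31.3% were called higher and 69.4% were called in either direction. The median log2 difference of the 6 was -2.54, against -0.11 over all genes tested. Prox1 entered the test through its white libraries, since it had at least 10 counts in only 6 libraries, all of them white. For 5 genes, all but Flt4, no brown library reached the lowest white library. A gap between the brown and white libraries, in either direction, holds for 45.1% of genes tested. Without iWAT 1 and 3 the count of genes called was 5, as Flt4 no longer passed.

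**Figure D1:**
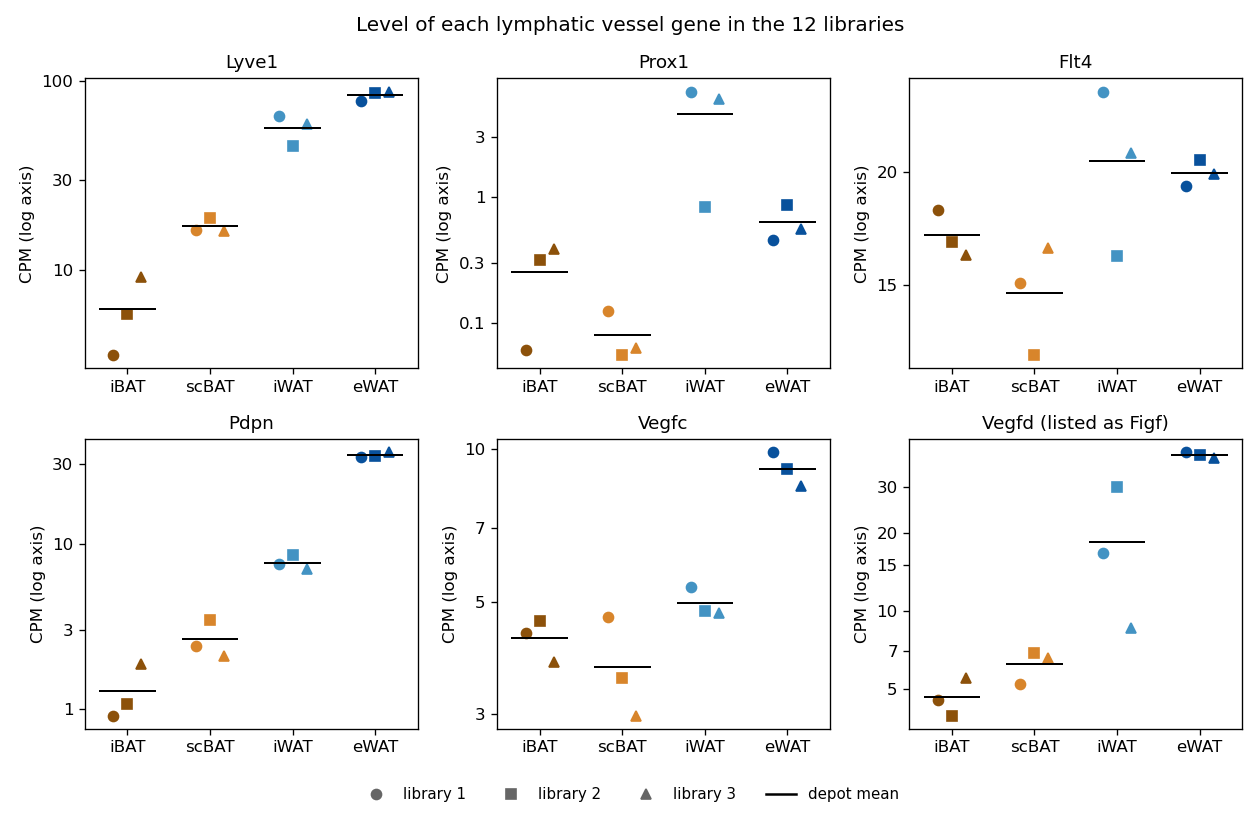
Level of each of the 6 genes in CPM (log axis) in every library, by depot, with the depot mean as a line. Prox1 is high in iWAT libraries 1 and 3 only, Flt4 covers a narrow range of 12.6 to 24.6 CPM, and Pdpn, Vegfc and Vegfd are highest in all 3 eWAT libraries.

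Prox1, the master regulator of lymphatic identity, was scarce in every depot except in 2 of the inguinal libraries. Its raw counts were 1, 5 and 6 in iBAT, 2, 1 and 1 in scBAT, 196, 19 and 182 in iWAT and 13, 22 and 18 in eWAT. As levels these were 0.0611, 0.319 and 0.388 CPM for iBAT, then 0.124, 0.0560 and 0.0634 for scBAT. The iWAT libraries stood at 6.89, 0.836 and 5.99 CPM and the eWAT libraries at 0.461, 0.872 and 0.564. Every white library lay above every brown library, and iWAT 2 lay within the range of eWAT, so that the iWAT and eWAT groups overlap. Prox1 was 3.51 lower in brown fat on the log2 scale (SE 0.62, adjusted p = 0.000461), and 2.27 lower without iWAT 1 and 3 (0.00107).

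With so few reads the counting error of Prox1 is wide. Pooled over 3 libraries each, iWAT was 7.84-fold higher than eWAT (95% exact counting interval 5.87 to 10.6) and 19.3-fold higher than iBAT (10.9 to 37.7). It was 60.5-fold higher than scBAT, which had 4 reads in all (23.5 to 223). eWAT was 2.46-fold higher than iBAT (1.30 to 5.06) and 7.72-fold higher than scBAT (2.85 to 29.4), while iBAT and scBAT could not be told apart (3.14-fold, 0.951 to 13.4). These intervals cover counting error only.

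The contrast of iWAT with eWAT gave a Prox1 difference of 2.85 (SE 0.69, adjusted p = 0.0171), which rested on iWAT 1 and 3. Without both it was 0.43 (adjusted p = 0.781), without iWAT 1 alone 2.43 (0.067), without eWAT 1 2.67 (0.0704) and without eWAT 3 2.78 (0.0619). Libraries iWAT 1 and 3 held 8.24 and 7.16 times the Prox1 level of iWAT 2. Of the 13546 tested genes that averaged 1 CPM or more in iWAT, 3.14% had both ratios at or above 7.16, the milder of these values. The difference between iBAT and iWAT was -4.15 (adjusted p = 0.00113), and -1.69 (0.0531) without iWAT 1 and 3. Between scBAT and iWAT it was -5.73 (adjusted p = 0.000411), and -3.28 (0.00427) without iWAT 1 and 3. Between scBAT and eWAT it was -2.88 (0.0288), a call lost when any scBAT library, eWAT 2 or eWAT 3 was left out (adjusted p up to 0.09) and with limma-voom (-2.54, 0.187). Between iBAT and eWAT it was -1.29 (adjusted p = 0.205), and it passed without iWAT 2 (0.0334).

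Lymph node genes moved with Prox1 among the iWAT libraries. The summed level of 8 lymph node stroma genes was 512, 39.1 and 710.5 CPM in iWAT 1, 2 and 3, 26.0 to 69.6 in eWAT and 2.86 to 4.54 in brown fat, where 3 or 4 of the 8 were at 0. In eWAT most of the sum was Chst4, Bst1 and, in eWAT 3, Cxcl13 at 37.2 CPM. Chst4 was higher in every eWAT library (13.05 to 19.06 CPM) than in any iWAT library (7.24, 0.440 and 9.81). Glycam1 and Madcam1 were at most 0.0627 and 0.317 CPM in eWAT. Ccl19, a chemokine of lymph node stroma, stood at 70.5, 4.67 and 126 CPM in iWAT and at 1.81 or less in every other library. Some other lymphatic genes were likewise high in iWAT 1 and 3, but not all. Stab1, Tek, Angpt1 and Ramp2 were lower in both than in iWAT 2, as were Pdpn and Vegfd. Mmrn1, which encodes a matrix protein of lymphatic endothelium, was at 19.8, 4.09 and 19.6 CPM, and Stab2, a hyaluronan receptor of sinus endothelium, at 41.8, 3.43 and 44.5. The part of lymph node tissue in the Prox1 level was not tested beyond the values without iWAT 1 and 3. Over the 12 libraries the genes with the pattern most like that of Prox1 were Trim36 (Pearson r 0.972), Mb21d1 (0.972), the DNA sensor cGAS, and Nedd9 (0.971), a scaffold of integrin signalling, all also highest in iWAT.

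Lyve1 was lower in each brown depot than in each white depot. It stood at 3.54, 5.86 and 9.11 CPM in iBAT, 16.2, 18.8 and 16.0 in scBAT, 65.5, 45.3 and 59.0 in iWAT and 78.4, 85.9 and 87.7 in eWAT. No depot overlapped its neighbour in this order. Such a gap between 2 depots, in either direction, holds for 16.8% of genes tested between the brown depots and 34.9% between the white depots. Against iWAT it holds for 60.9% (iBAT) and 59.1% (scBAT) of genes, and against eWAT for 74.6% and 73.1%. The difference between brown and white fat was -2.75 (SE 0.19, adjusted p = 6.73e-07). All 4 pairs of a brown and a white depot passed, with differences from -3.77 (iBAT against eWAT, adjusted p = 3e-06) to -1.74 (scBAT against iWAT, 0.000296). The steps within a colour did not pass: scBAT was above iBAT by 1.46 (SE 0.27, adjusted p = 0.0602) and iWAT below eWAT by 0.57 (SE 0.25, adjusted p = 0.104). The step between the brown depots passed with DESeq2 (adjusted p = 5.15e-05), without iBAT 3 (0.0192), without iWAT 2 (0.0205) and without iWAT 1 and 3 (0.0278). The step between the white depots passed with limma-voom (0.0412) and without iBAT 1 (0.0481).

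The summed level of 12 macrophage genes had the same depot order as Lyve1. It was 193 to 240 CPM in iBAT, 381 to 420 in scBAT, 891 to 1289 in iWAT and 1352 to 1444 in eWAT, and 12 of the 12 fell in brown against white fat (median log2 difference -2.07). By depot mean, Mertk, Timd4 and Cd68 left that order. Mertk averaged 20.2 CPM in scBAT and 21.2 in iBAT. Timd4 (90.5 against 10.3) and Cd68 (46.0 against 38.9) were higher in iWAT than in eWAT. As calls, 4 of the 12 rose in scBAT against iBAT, and between iWAT and eWAT 1 rose (Timd4) and 2 fell. The median log2 difference of the 12 was 0.91 in scBAT against iBAT, with and without iWAT 1 and 3. In iWAT against eWAT it was -0.37, and -0.12 without them. Over all genes tested, 38.1% fell in brown fat, 0.329% were called between scBAT and iBAT, and 28.7% between iWAT and eWAT. None of the 12 macrophage genes was at 0 in any library. Csf1r, the receptor that keeps macrophages alive, stood at 39.0 CPM in brown and 183 in white fat (log2 difference -2.29, adjusted p = 2.46e-08). The genes most like Lyve1 over the 12 libraries were Lacc1 (r 0.986), an enzyme of macrophage metabolism, C1qc (0.985), a complement subunit that macrophages make, and Gas7 (0.985). Among the iWAT libraries Lyve1 and the macrophage sum differed in order. Lyve1 was lowest in iWAT 2 and the sum was highest there. Single genes of the list differed: Csf1r (182, 158 and 174 CPM in iWAT 1, 2 and 3), Timd4 and Cd68 were also lowest in iWAT 2. The other genes of the list were highest there. How much of Lyve1 comes from macrophages was not tested directly, and its ratio to a macrophage gene is given further on.

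Pdpn had the widest range of the well-counted genes. It stood at 0.917, 1.08 and 1.87 CPM in iBAT, 2.42, 3.47 and 2.09 in scBAT, 7.49, 8.50 and 7.01 in iWAT and 33.1, 33.9 and 35.6 in eWAT. None of the 4 depots overlapped another. Brown fat was 3.12 lower than white fat (SE 0.18, adjusted p = 2.2e-07), and iWAT was 2.16 lower than eWAT (SE 0.24, adjusted p = 0.000653), a call that held without iWAT 1 and 3 (-1.99, 0.00168). Against iBAT the difference was -2.57 in iWAT (adjusted p = 2.19e-05) and -4.72 in eWAT (6.99e-07), where negative means lower in iBAT. Against scBAT it was -1.52 in iWAT (0.000435) and -3.68 in eWAT (2.69e-06). scBAT was above iBAT by 1.05 (SE 0.27, adjusted p = 0.266), which passed with DESeq2 alone (0.0207).

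Mesothelium, the sheet of cells that lines the abdominal cavity and covers the epididymal pad, also makes podoplanin. The summed level of 9 mesothelial genes was 429 to 592 CPM in eWAT, 3.56 to 8.19 in iWAT, 7.84 to 9.95 in iBAT and 11.3 to 45.4 in scBAT. Upk3b, a mesothelial surface gene, had no read in any brown library, stood at 0.352 to 1.90 CPM in iWAT and reached 160 to 186 in eWAT. The part of mesothelium in the eWAT level of Pdpn was not tested. Most of the iBAT sum was Lrrn4, at 7.39 to 8.85 CPM, against 2.14 to 5.94 in iWAT. Msln, Upk1b, Wt1 and Bnc1 had no read in iBAT and lay at 0.03 to 0.63 CPM in iWAT. In scBAT most of the sum was Lrrn4, Krt8 and Krt18. Krt18 stood at 8.08, 23.0 and 1.08 CPM in scBAT 1, 2 and 3, and Krt8 at 4.04, 10.98 and 0.634. Upk1b, Wt1 and Bnc1 had no read in scBAT, and Msln was at most 0.336 CPM there. The part of mesothelium in the iWAT level of Pdpn was not tested either. The nearest patterns were those of Ptgs1 (r 0.989), which encodes cyclooxygenase 1, C6 (0.986), a complement component, and Pyroxd2 (0.984).

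Flt4, which encodes the receptor for both lymphatic growth factors, was nearly level over the depots. Its values were 18.2, 16.8 and 16.2 CPM in iBAT, 15.1, 12.6 and 16.5 in scBAT, 24.6, 16.2 and 21.0 in iWAT and 19.3, 20.7 and 19.9 in eWAT. iWAT 2 lay below 4 of the brown libraries, so that brown and white overlap. Brown fat was 0.36 lower on the log2 scale (SE 0.11, adjusted p = 0.0151), and with upper quartile scaling, which shifts the median of all genes to -0.17, it was 0.42 lower. Without iWAT 1 and 3 the difference was -0.17 (adjusted p = 0.109). scBAT was below iWAT by 0.49 (adjusted p = 0.0215) and below eWAT by 0.44 (0.0378).

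Both calls of scBAT were lost when single libraries were left out: against iWAT without scBAT 2 (adjusted p = 0.0871) or iWAT 1 (0.104), and likewise with only these depots in the fit (0.107), and against eWAT without iBAT 1 or 2, scBAT 1 or 2 or any eWAT library (up to 0.14). Without iWAT 1 and 3 the difference from iWAT was -0.13 (0.471). iBAT did not pass against iWAT (-0.27, adjusted p = 0.155) or eWAT (-0.23, 0.246), and the former passed without iWAT 2 (-0.42, 0.011). iWAT and eWAT differed by 0.04 (SE 0.16, adjusted p = 0.839), and by -0.0084 with upper quartile scaling, which shifted the median of all genes by a like amount, to -0.05. The nearest patterns were Neu3 (r 0.91), a sialidase, Rtel1 (0.88), a DNA helicase, and Cenpc1 (0.88), a centromere protein.

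Of the ligands, Vegfc set eWAT apart from the other 3 depots. It stood at 4.34, 4.59 and 3.81 CPM in iBAT, 4.66, 3.53 and 2.98 in scBAT, 5.34, 4.80 and 4.74 in iWAT and 9.87, 9.12 and 8.47 in eWAT. Every eWAT library was above every other library, and the highest brown value, 4.66, lay just under the lowest iWAT value, 4.74. Brown fat was 0.76 lower than white (SE 0.14, adjusted p = 0.000498). iBAT was 1.11 lower than eWAT (adjusted p = 0.000639), scBAT 1.30 lower (0.000259) and iWAT 0.88 lower (SE 0.19, 0.0108). Against iWAT, iBAT was 0.22 lower (0.325) and scBAT 0.41 lower (0.0829), and only the latter passed in an alternative, without scBAT 1 (0.0225). The difference between the white depots kept its size without iWAT 1 and 3 (-0.91) with an adjusted p of 0.0693. The nearest patterns were Tspan9 (r 0.984), a tetraspanin, Chrnb1 (0.977), an acetylcholine receptor subunit, and Ntng2 (0.964).

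Vegfd was also highest in eWAT and had an order of its own in iWAT. It stood at 4.52, 3.95 and 5.49 CPM in iBAT, 5.22, 6.89 and 6.60 in scBAT, 16.7, 29.9 and 8.59 in iWAT and 40.9, 39.8 and 38.8 in eWAT. Its coefficient of variation was 2.55% among eWAT libraries and 58.4% among iWAT libraries. Brown fat was 2.33 lower than white (SE 0.26, adjusted p = 1.75e-05), and 2.66 lower without iWAT 1 and 3 (1.76e-09). All 4 pairs of a brown and a white depot passed, from -3.10 (iBAT against eWAT, adjusted p = 5.9e-05) to -1.56 (scBAT against iWAT, 0.00342). scBAT and iBAT differed by 0.42 (adjusted p = 1).

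The difference of Vegfd between iWAT and eWAT was -1.12 (SE 0.34, adjusted p = 0.0363) and lost its call without iBAT 1 or 2, scBAT 2 or 3, iWAT 1 or 3, or any eWAT library (adjusted p up to 0.117). Without iWAT 1 and 3 it was -0.40 (0.203). In iWAT 1 and 3 the Vegfd level was 0.559 and 0.287 times that of iWAT 2, lower in both where Prox1 was higher. Of the 13546 genes, 8.21% had both ratios at or below 0.559, the milder of these values. The summed level of 10 genes of adipose progenitors and fibroblasts had the same order as Vegfd, at 3333, 6044 and 2099 CPM in iWAT 1, 2 and 3. Most of it was Col3a1 (1651, 3478 and 826 CPM) and Col1a1 (484.5, 1130 and 240). Dpp4 (77.9, 32.3 and 121 CPM) and Thy1 (163.5, 40.4 and 234) had the opposite order, and the other genes of the list that of the sum. The sum was 932 to 1211 in iBAT, 1419 to 1645 in scBAT and 3948 to 4310 in eWAT. In brown against white fat 9 of the 10 fell, as did 38.1% of all genes tested. No gene of that list was at 0 in any library, and its part in the Vegfd level was not tested. The genes most like Vegfd were Col6a1 (r 0.997), a collagen VI chain, Adamts2 (0.996), the protease that trims procollagen, and Htra1 (0.995), a secreted protease of the matrix.

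**Figure D2:**
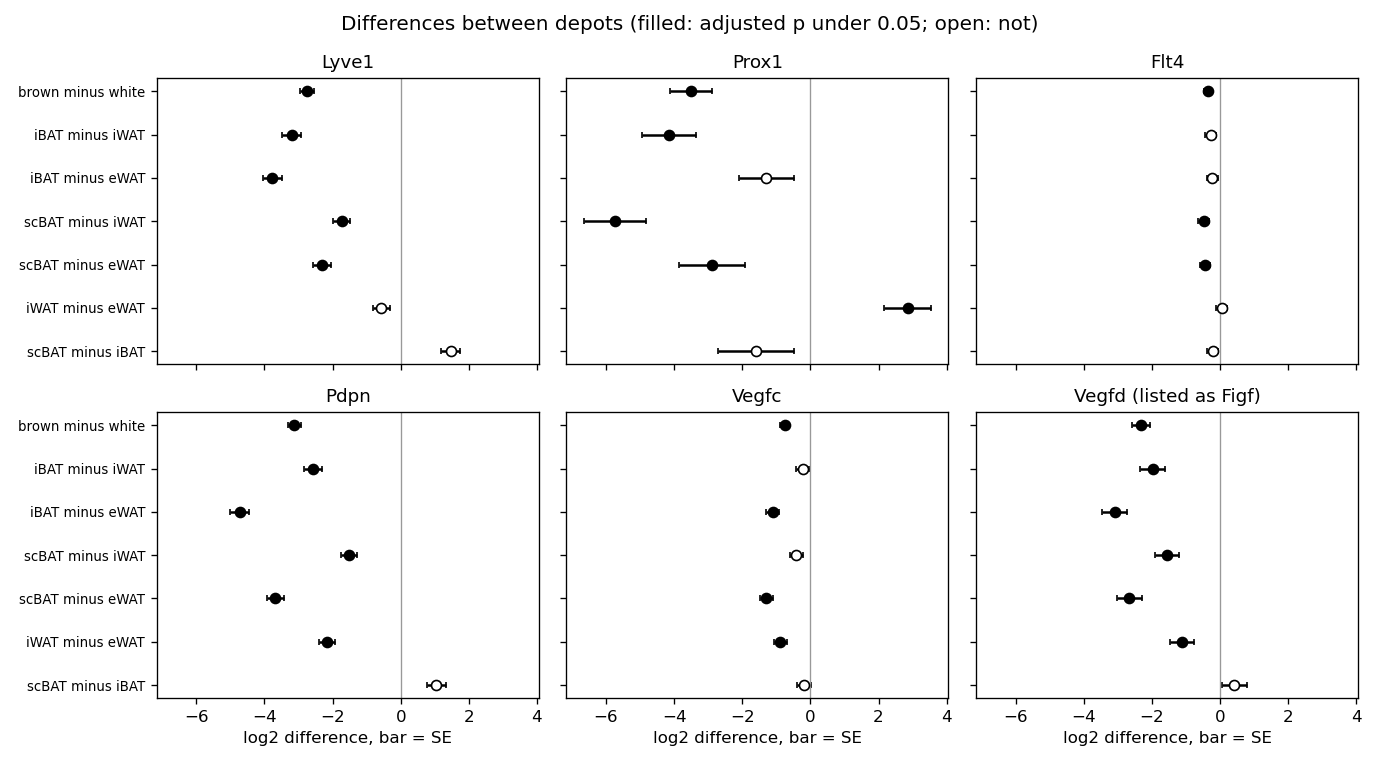
Log2 difference of each of the 6 genes (x axis) in the 7 comparisons (y axis), with bars of 1 SE, and filled points for an adjusted p under 0.05. Flt4 stays near 0 throughout, and Prox1 alone lies on the positive side as a filled point for iWAT minus eWAT.

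Within a colour of fat the genes behaved differently again. Between scBAT and iBAT 0 of the 6 passed, where 0.329% of genes tested did. At an unadjusted p under 0.05 it was 2 (Lyve1 and Pdpn), a count with no share of all genes at that threshold to read it beside. With DESeq2 2 passed, where 210 of all genes tested did. With limma-voom 0 passed, where 29 of all genes did. Between iWAT and eWAT 1 gene was higher in iWAT (Prox1) and 3 lower (Pdpn, Vegfc and Vegfd), where 28.7% of genes tested changed, 17.7% higher and 11% lower. Without iWAT 1 and 3, 1 of these 4 passed, Pdpn. Between single brown and white depots all calls were lower in the brown depot. For iBAT 4 of 6 passed against iWAT (63% of genes tested, 35.2% as lower) and 4 against eWAT (53.7%, 27.5% as lower). For scBAT 5 passed against iWAT (61.6%, 33.5% as lower) and 6 against eWAT (51.9%, 25.8% as lower). These comparisons share libraries.

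Levels can be compared between the genes per kilobase of exon. In eWAT Lyve1 stood at 28.8 CPM per kilobase, Pdpn at 18.8 and Vegfd at 16.5, well above Vegfc at 3.74, Flt4 at 2.43 and Prox1 at 0.0754. In iBAT 4 genes lay close together, Lyve1 at 2.11, Flt4 at 2.07, Vegfd at 1.93 and Vegfc at 1.73 CPM per kilobase, with Pdpn at 0.711 and Prox1 at 0.0305. Kdr, the gene of the main receptor for VEGF-A, was at 31.0 CPM per kilobase in iBAT and 21.5 in eWAT. Across the 12 libraries the log2 levels of Pdpn and Vegfd had a Pearson r of 0.955, Lyve1 and Pdpn 0.936, and Prox1 and Vegfc 0.337. These are descriptions over libraries that share depots.

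Of 13 further ligands, receptors and processing genes of the VEGF pathway tested, 7 rose and 3 fell in brown against white fat, with a median log2 difference of 0.48. Over all genes tested, 31.3% rose, 38.1% fell and the median was -0.11. Without iWAT 1 and 3 the median of the 13 was 0.53. Vegfa, the growth factor of blood vessels, averaged 637 CPM in brown and 300.5 in white fat (log2 difference 1.10, adjusted p = 0.00264). Vegfb rose by 0.93 (0.00214), and the receptors Flt1 and Kdr rose by 0.88 (0.00316) and 0.48 (0.0126). The co-receptor Nrp1 rose by 0.82 (0.00276). Nrp2, the co-receptor that lymphatic endothelium uses together with VEGFR3, rose by 1.56 (SE 0.08, adjusted p = 8.12e-08), at 190 to 242 CPM in the brown libraries and 65.4 to 80.8 in the white. Furin, a protease that cuts the VEGF-C and VEGF-D precursors, rose by 1.02 (2.52e-06).

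Ccbe1, Itga9 and Pgf were the pathway genes that fell in brown fat. Ccbe1, the scaffold needed to cut the VEGF-C precursor, stood at 26.2, 30.9 and 28.2 CPM in eWAT and at 3.30 or less in every other library. Its difference was -2.27 between brown and white fat (adjusted p = 2.01e-06) and -3.29 between iWAT and eWAT (0.000134), the same depot order at the top as for Vegfc. Itga9, an integrin of lymphatic valves, fell by 1.69 (9.9e-06), and Pgf, a ligand of Flt1, fell by 1.11 (0.000304). Between iWAT and eWAT 2 of the 13 fell, Ccbe1 and the VEGF-C protease Adamts3 (-1.05, adjusted p = 0.0372), and 1 rose, the convertase Pcsk7 (0.34, 0.0413). Of all genes tested 11% fell and 17.7% rose, so these counts are near that share. The median log2 difference of the 13 between these depots was -0.34, and 0.08 without iWAT 1 and 3.

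**Figure D3:**
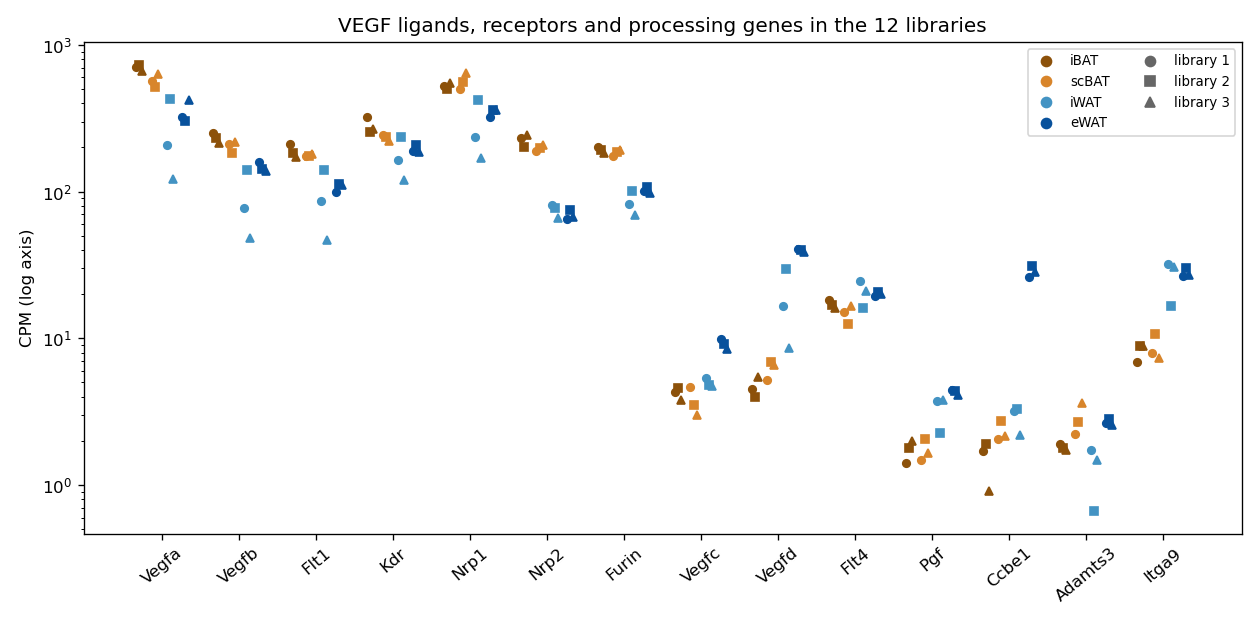
Level in CPM (log axis) of Vegfc, Vegfd, Flt4 and 11 other genes of the VEGF pathway in the 12 libraries, coloured by depot, with a symbol for each library number. Nrp2 is at 190 CPM or more in all brown libraries and at most 80.8 in white ones, while Ccbe1 is above 26 CPM in eWAT only.

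Of 7 other transcription factors of lymphatic development, 3 fell in brown fat and 1 rose, near the 38.1% and 31.3% of all genes tested. Their median log2 difference was -0.45, and 0.05 without iWAT 1 and 3. Nr2f2 (COUP-TFII), which acts with Prox1, fell by 0.51 (adjusted p = 0.000174), Foxc2, a factor of lymphatic valves, by 2.50 (0.000273) and Hhex by 1.85 (0.00189). Gata2, another valve factor, rose by 0.64 (0.00982). Sox18, which switches on Prox1 in the embryo, was at 26.5 to 62.0 CPM in all 12 libraries, with a difference of 0.18 between brown and white fat (adjusted p = 0.302). Between iWAT and eWAT 2 of the 7 rose and 2 fell, as did 17.7% and 11% of all genes tested. Nfatc1 rose by 1.08 (0.0198) and Hhex by 1.98 (0.0274), and both were high in iWAT 1 and 3 only, with Hhex at 38.4, 8.80 and 47.7 CPM in iWAT. Without those libraries the median of the 7 between iWAT and eWAT was -0.02, against -0.40 with all libraries. Foxc2 fell by 1.87 (0.0202) and Nr2f2 by 0.58 (0.00715).

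Of 18 surface, junction and signalling genes of lymphatic endothelium tested, 11 fell and 1 rose in brown fat (38.1% and 31.3% of all genes tested), with a median log2 difference of -1.45. Without iWAT 1 and 3 the median was -1.31. Sema3d, a guidance cue, fell by 3.40 (adjusted p = 7.84e-06), the Tie2 ligand Angpt2 by 1.79 (1.57e-05) and Ccbp2, a chemokine scavenger also known as Ackr2, by 2.02 (3.96e-05). Mmrn1 fell by 2.73 (0.000373) and Reln by 1.51 (0.00187). Tek, the Tie2 receptor that blood vessels also carry, rose by 0.59 (0.022). The 19th gene of the list, Ccl21a, was listed at 0 in all 12 libraries. Between iWAT and eWAT 5 rose and 3 fell, with a median of -0.35, and of -0.17 without iWAT 1 and 3. With all libraries, 17.7% of all genes tested rose and 11% fell between these depots. Stab2 rose by 4.33 (0.00838), and Stab1, a scavenger receptor shared with macrophages, fell by 0.86 (0.0257).

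**Figure D4:**
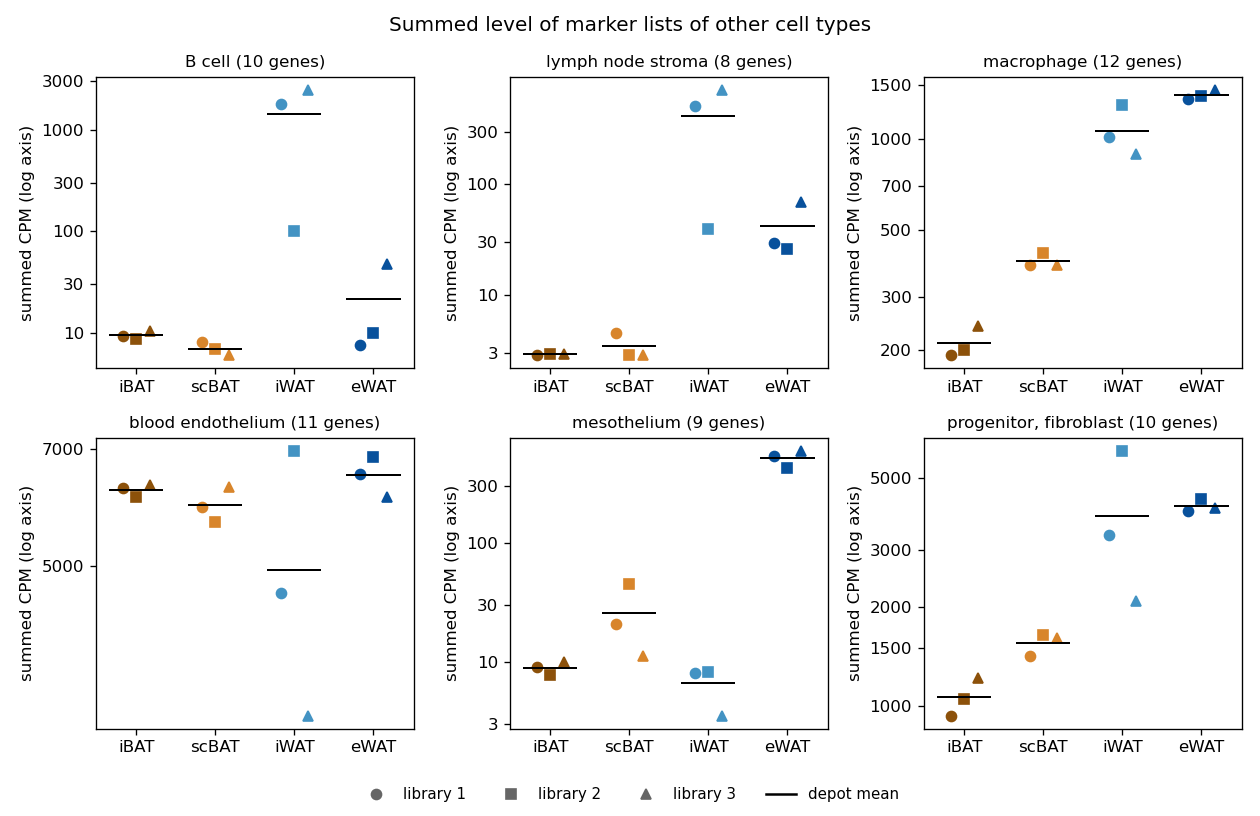
Summed CPM (log axis) of 6 lists of marker genes in each library, by depot, with the depot mean as a line. B cell and lymph node stroma sums are high in iWAT 1 and 3, macrophage sums are lowest in iBAT and highest in eWAT, and mesothelium sums are 429 CPM or more in eWAT and at most 45.4 elsewhere.

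The counts of the remaining lists are read beside those of all genes tested, of which 31.3% rose and 38.1% fell in brown against white fat. Between iWAT and eWAT 17.7% rose and 11% fell. Blood vessel genes were mixed and near these shares. Of 11 blood endothelial genes, 2 rose and 5 fell in brown fat, with a median log2 difference of -0.09 (-0.11 over all genes tested). Pecam1, which blood and lymphatic endothelium share, was at 222 to 344.5 CPM in all libraries, and its difference was -0.21 (adjusted p = 0.0412). Plvap, a gene of fenestrated vessels, fell by 2.19 (1.76e-07) and Tie1 rose by 0.80 (0.000275). All 10 B cell and all 10 T cell genes fell in brown against white fat and rose in iWAT against eWAT. With iWAT 1 and 3 left out, the median log2 differences in brown fat were -2.57 (B cell) and -1.52 (T cell). In iWAT against eWAT they were then 2.25 and 1.98. Of 7 lymph node stroma genes tested, 6 fell in brown fat and 5 rose in iWAT against eWAT. Their medians were -4.73 and 3.81, and -3.2 and 1.17 without iWAT 1 and 3. Of 9 mesothelial genes, 7 fell in brown fat and 9 fell in iWAT against eWAT. Of 5 adipocyte genes, 1 rose in brown fat (Pparg), and 7 of 7 skeletal muscle genes rose, with none of either list called between iWAT and eWAT. The adipocyte median in brown against white fat was -0.0064, and -0.35 without iWAT 1 and 3.

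Ratios within a library ask whether a lymphatic gene differed beyond a partner gene of a related cell type. They use log2 CPM with a prior count of 2. Between 6 brown and 6 white libraries 4 ratios were tested with a two-sided exact permutation test whose smallest possible p is 0.00217. Without iWAT 1 and 3 fewer libraries are compared and the smallest possible p is higher. Ratios that share an adjusted p there are at that limit, so their p-values do not rank them. Prox1 to Pecam1 averaged -10.13 ± 0.72 in brown and -7.59 ± 1.50 in white fat (SD, n = 6 each; difference -2.54, exact p = 0.00217, adjusted 0.00866). Every white library lay above every brown one, and without iWAT 1 and 3 the difference was -1.57 (adjusted exact p = 0.0127). Prox1 had only 1 to 6 reads per brown library and entered the analysis through its white libraries. Flt4 to Kdr, the ratio of the VEGFR3 to the VEGFR2 gene, averaged -4.01 ± 0.17 and -3.15 ± 0.48 (difference -0.85, exact p = 0.00433, adjusted 0.00866). All white libraries but iWAT 2 were above all brown ones, and without iWAT 1 and 3 the difference was -0.59 (adjusted exact p = 0.0127). Kdr itself differed by 0.48 and Flt4 by -0.36 (-0.17 without iWAT 1 and 3), so this ratio moved with both genes and not with Flt4 alone.

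Vegfd to Vegfc averaged 0.43 ± 0.52 in brown and 1.91 ± 0.61 in white fat (SD, n = 6 each; difference -1.47, exact p = 0.00649, adjusted 0.00866), with iWAT 3 as the white library that overlapped. The difference was -1.81 without iWAT 1 and 3 (adjusted exact p = 0.0127). Lyve1 to Mrc1, a gene of resident macrophages, averaged -1.72 ± 0.48 in brown and -0.87 ± 0.56 in white fat (SD, n = 6 each; difference -0.85, exact p = 0.0108, adjusted 0.0108). iWAT 2 lay within the brown range at -1.84, and without iWAT 1 and 3 the difference was -0.61 (adjusted exact p = 0.0714). Against Csf1r in place of Mrc1 the Lyve1 difference was -0.49 (adjusted exact p = 0.0368). With Cdh5 as partner, a junction gene of all endothelium, the differences were -2.99 for Prox1 and -0.58 for Flt4.

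**Figure D5:**
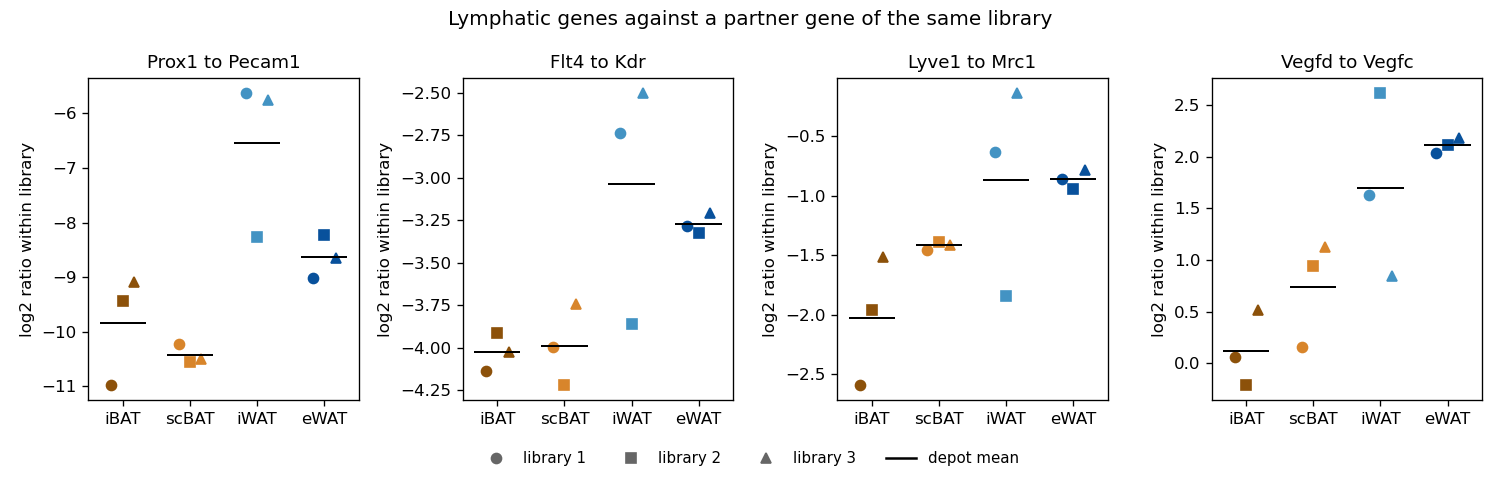
Log2 ratio of 4 pairs of genes within each library (y axis) by depot, with the depot mean as a line. iWAT 2 lies apart from iWAT 1 and 3 in all 4 ratios, below them for Prox1, Flt4 and Lyve1 and above them for Vegfd to Vegfc.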

How the data were processed

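Gene expression was measured in 12 libraries of mouse fat (3 per depot), made from total RNA with TruSeq. The deposited table holds raw counts, whole numbers of reads per gene symbol, to which the authors applied no normalization. Per the submitters' processing notes, the tools were edgeR, HTSeq 0.6.1p1, Picard 1.119, STAR 2.4.2a and bcl2fastq 1.8.3, with build mm10. Annotation and strand setting are not given in the sources used here.

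The filterByExpr function kept 14898 genes. Differences were fitted over all 12 libraries with a mean per depot, TMM scaling and the robust quasi-likelihood F test of edgeR 4.0.16 (R 4.3.3), with Benjamini-Hochberg adjustment over all genes of a comparison and a threshold of 0.05. The script was checked on simulated data. DESeq2 1.42.0, limma-voom (limma 3.58.1), other scalings, no filter, only the depots compared, a replicate block and leaving out each library were alternatives. Same-numbered libraries did not deviate together: r ranged from -0.184 to 0.234 over 18 pairs, with 5 over 0.1. The labels name no batch.

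The genes and lists were chosen with earlier results of these data known, and so was leaving out iWAT 1 and 3. The lists were VEGF pathway, lymphatic transcription factors, lymphatic surface and junction, blood endothelium, macrophage, B cell, T cell, lymph node stroma, mesothelium, progenitor and fibroblast, adipocyte and muscle. Named beside the 6 genes were up to 3 genes per list with the smallest adjusted p (brown against white, iWAT against eWAT), called genes against their list, a fixed set of marker genes, and per gene the 3 highest Pearson r of log2 CPM over 12 libraries among genes of at least 5 CPM in a depot. Predicted genes and receptor segments were not named. Vegfb, Flt1 and Nrp1 were chosen after their values were seen.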

Additional observations from a re-analysis of the deposited data

How the results depend on the processing

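Over the 6 genes and 7 comparisons, 782 of the alternative values kept their direction and side of the threshold, 38 lost and 10 gained a call, and 4 changed sign. The sign changes were all of Flt4 and of small differences: between iWAT and eWAT -0.0084 with upper quartile scaling, a shift like that of the median of all genes, -0.10 without iWAT 1 (up to 0.21 without iWAT 2) and -0.29 without iWAT 1 and 3, and between iBAT and iWAT 0.084 without iWAT 1 and 3. The count of the 6 genes called between scBAT and iBAT went from 0 to 2 with DESeq2, to 1 without iWAT 1 and 3 and to between 0 and 1 when single libraries were left out. Over all genes that count went from 49 to 210 with DESeq2, 29 with limma-voom, 157 with only the depots compared, 301 without iWAT 1 and 3, and 10 to 153 without single libraries. With a replicate block it was 18, and although the numbers do not pair the libraries (5 of 12 correlate best with their own number), the block moved no other count by over 1.5 times.

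Between iWAT and eWAT the 6 genes gave 4 calls, 1 with only the depots compared, 1 without iWAT 1 and 3, and 2 to 4 without single libraries. Prox1 there lost its call with limma-voom (adjusted p = 0.0574) and with only the depots compared (0.12), as did Vegfd (0.162) and Vegfc (0.085). Over all genes 4277 calls became 196 with only the depots compared, 1005 without iWAT 1 and 3, and 1263 to 9972 without single libraries. The Lyve1 to Mrc1 ratio moved to -0.61 (adjusted exact p = 0.0714) without iWAT 1 and 3. Brown against white fat gave 6 calls under every alternative except without iWAT 1 and 3, where it gave 5. Causes were not tested. Counts of Prox1, at 1 to 6 per brown library, limit what can be said of it there.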
